A study of Rattus norvegicus with 12 samples.

Results

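A set of 80 genes is described here. In cultured fibro-adipogenic progenitors of control rats their level was at least 4 times higher at day 3 than at day 0 of adipogenic induction, and in induced cells of rats whose hind limbs had been unloaded for 14 days they stood at no more than 0.5 of the induced control level. The selection used CPM, each gene's count scaled to the total count of its library, averaged over the 2 libraries of a group with 0.5 CPM added. It required a control level of at least 5 CPM at day 3. Among 32622 gene identifiers, 202 met the conditions on control cells, not counting identifiers that the selection drops. Of these 202 genes, 80 also met the condition on 14-day cells, and the other 122 are used below for comparison. The selection drops 5 identifiers, 3 of which met every condition. Cells of rats unloaded for 7 days took no part in the choice.

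The libraries came from primary cultures of rat soleus progenitors, grown in DMEM with fetal bovine serum, penicillin-streptomycin and L-glutamine until subconfluent. Donor rats were controls or had undergone hindlimb suspension for 7 days or for 14 days. Cells of each treatment were taken at day 0 and at day 3, which gives 6 groups of 2 libraries. At day 0 the cells were in culture medium, and by day 3 they had been in the same medium with insulin, dexamethasone and 3-isobutyl-1-methylxanthine. No group was kept to day 3 without these agents, so each change from day 0 to day 3 includes the added time in culture. The labels give neither strain nor age, and do not say whether the libraries of a group came from separate animals or cultures.

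Fibro-adipogenic progenitors are mesenchymal cells between the fibres of skeletal muscle that support muscle repair and can become fat cells or fibroblasts. The induction cocktail acts through the insulin and glucocorticoid receptors and through cyclic AMP, and is known to start a cascade of transcription factors that ends in lipid storage. The soleus is a postural muscle that wastes when the hind legs bear no weight. The table lists Ensembl identifiers, and 0 of the 32622 could be paired with a gene symbol here. The members are therefore described by their levels, with no function given to any of them, and the labelled cell type was not checked against marker genes.

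Library totals ranged from 15105521 to 21484885 counts. All 80 genes passed the filter on low counts, as their control level at day 3 made certain, so that 80 of 80 were tested among 13215 genes. The replicates of a group lay close together for these genes. The median gap between the 2 libraries of a group was between 0.0703 and 0.241 on the log2(CPM + 0.5) scale. The widest gap for a single gene, 1.79, was in induced 7-day cells.

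The values that chose the 80 genes are given first, with no test. In control cells their levels ran from 5.14 to 1629 CPM at day 3, with a median of 49.3 CPM, and from 0 to 215 CPM at day 0, with a median of 1.91 CPM. The rise in control cells was 4.10-fold to 344-fold, with a median of 11.2-fold. In induced 14-day cells they ran from 0 to 391 CPM, with a median of 2.89 CPM, and their ratio to induced control cells was 0.00804 to 0.488, with a median of 0.0953. The control level at day 3 was at least 100 CPM in 28 of the 80 genes, and the 14-day level was so in 4. In 6 of them both induced 14-day libraries had 0 reads, which allows up to 0.0775 CPM (3 counts over the group).

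The limit on the 14-day ratio divided neighbouring genes. The 3 members just inside it had ratios of 0.488, 0.481 and 0.451, and the 3 genes just outside it had 0.513, 0.515 and 0.529. The lowest control rises among the members were 4.10-fold, 4.14-fold and 4.30-fold, and the lowest control levels at day 3 were 5.14, 5.42 and 6.30 CPM. Near these limits membership rests on small differences.

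As a share of all counts, the 80 genes stood far lower in induced unloaded cells than in induced control cells. At day 3 they took 1.28% and 1.27% of the counts in the control libraries, 0.261% and 0.268% in the 7-day libraries, and 0.184% and 0.183% in the 14-day libraries. The 3 groups did not overlap. The control and 14-day libraries at day 3 were used to choose the 80 genes, so the gap between them follows from the choice. The same libraries set the other 122 control-induced genes apart. At day 0 the shares were 0.108% and 0.112% in control, 0.0973% and 0.0943% in 7-day and 0.0891% and 0.0879% in 14-day libraries. The other 122 control-induced genes took 2.41% ± 0.00205 of the counts in induced control cells, 2.87% ± 0.00749 in induced 7-day cells and 2.89% ± 0.0192 in induced 14-day cells (SD, n = 2 each). In cultures sequenced as a whole, fewer cells with high levels and less RNA per cell cannot be told apart.

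**Figure D1:**
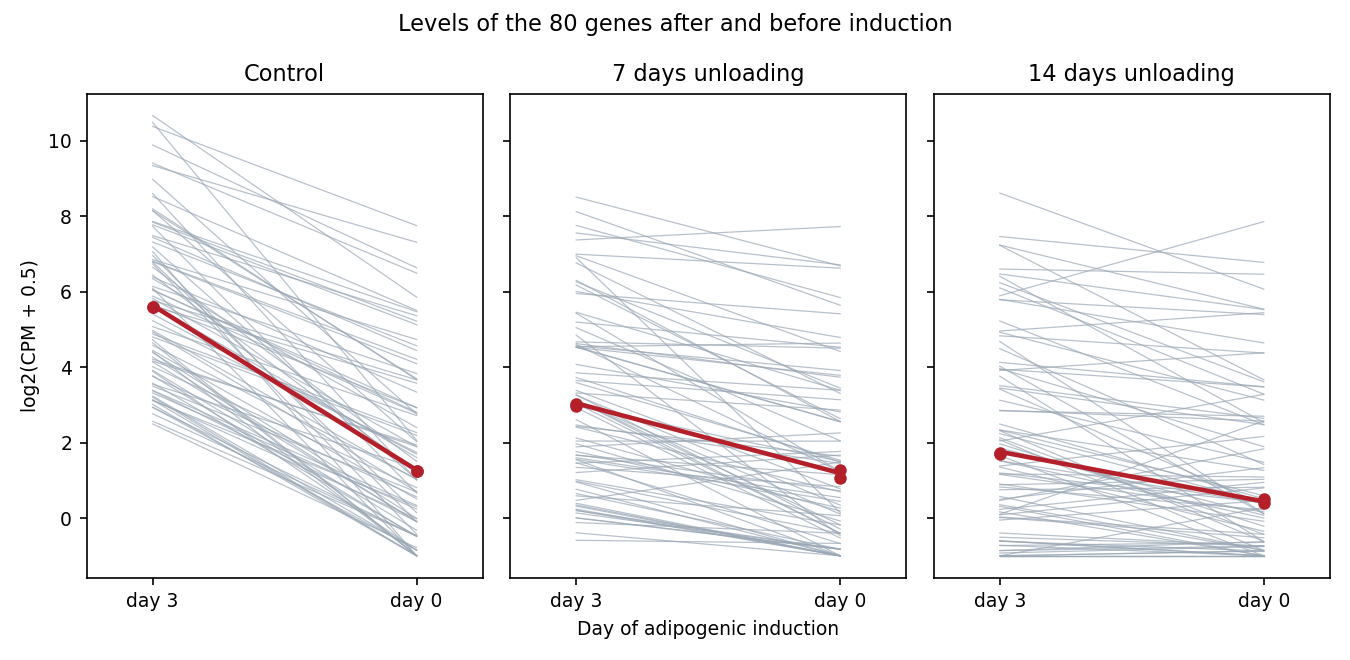
Level of each of the 80 genes as log2(CPM + 0.5) at day 3 and day 0 of induction (grey lines, means of 2 libraries), in control, 7-day and 14-day cells. The red line is the median of the 80 genes and the red points are the medians in single libraries, whose CPM equivalents at day 3 were 47.5 and 47.9 in control, 7.34 and 7.60 in 7-day and 2.74 and 2.84 in 14-day libraries.

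Cells unloaded for 7 days, which had no part in the selection, were also low in these genes at day 3. Their ratio to induced control cells was at most 0.5 in 73 of the 80 genes, with a median of 0.161 and quartiles of 0.0863 and 0.296. Of the 9731 genes with at least 5 CPM in induced control cells, 1.64% had such a ratio. Of the other 122 control-induced genes, 2 did, and the median ratio of the 122 was 1.12. Over all 13215 genes tested the median was 1.01. The control libraries in this ratio were the ones the genes were chosen on, as genes high at day 3, both for the 80 and for the 122.

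Both induced 7-day libraries lay below both induced control libraries in 79 of the 80 genes, against 27.4% of the 9731 genes. By edgeR's quasi-likelihood test the 7-day level was lower than control at day 3 in 79 of the 80 and higher in 0, where 7.43% of all genes tested were lower and 6.75% higher. Of the other 122 genes, 38 were higher, 19 lower and 65 did not pass. Since the control libraries were used by the selection, these counts describe the genes and do not test the choice. The exception among the 80 was the member with the highest 7-day ratio, 0.925. It had 8.91 and 11.0 CPM in 7-day libraries, against 9.80 and 11.8 CPM in control libraries (log2 difference -0.13, SE 0.22, edgeR adjusted p = 0.781), so that these groups overlapped, while the 14-day libraries had 3.62 and 4.12 CPM. The 7 genes with a 7-day ratio above 0.5 had medians of 43.3 CPM in induced 7-day cells and 83.3 CPM in induced control cells.

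**Figure D2:**
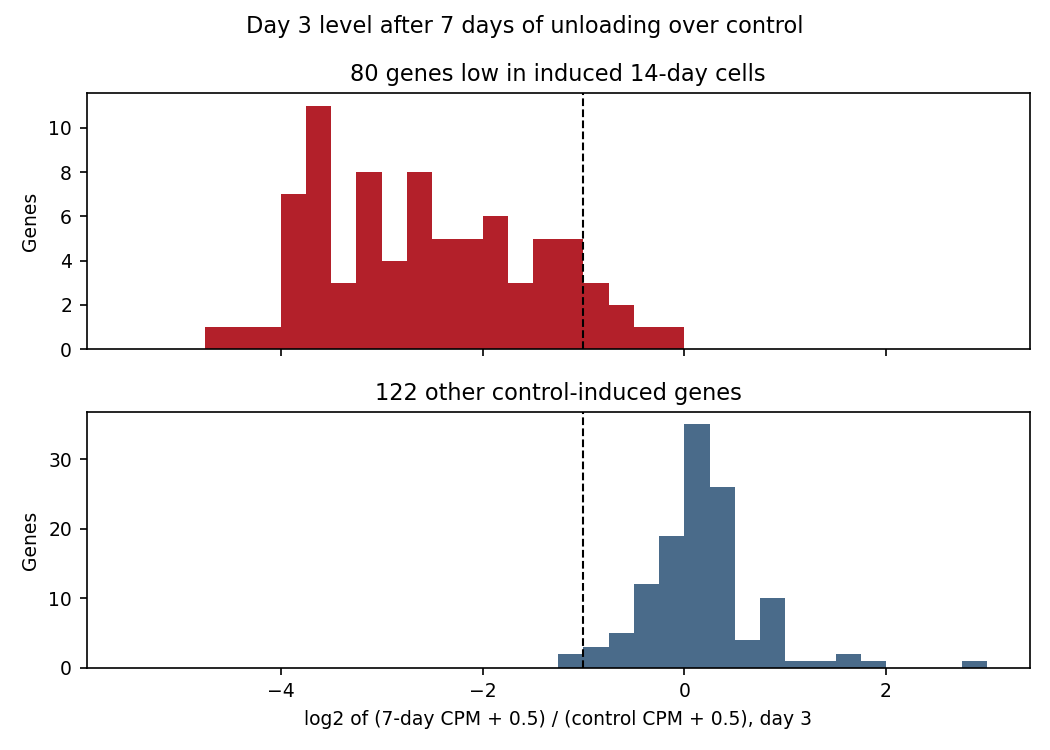
Number of genes by the log2 ratio of the day 3 level after 7 days of unloading to the day 3 level in control cells, each with 0.5 CPM added, for the 80 genes (top) and the other 122 control-induced genes (bottom). The dashed line marks a ratio of 0.5, and 73 of the 80 but 2 of the 122 genes lie at or below it.

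The 7-day cells stood between control and 14-day cells at day 3. Their mean lay between the means of these groups in 73 of the 80 genes, and below that of the 14-day cells in the other 7. It lay between them in 3097 of the 9731 genes and in 21 of the other 122 control-induced genes. In 60 genes the 14-day libraries were all below the 7-day libraries and these all below the control libraries, an order that 12.5% of the 9731 genes showed. On the log2 scale with 0.5 CPM added, the 7-day cells stood at 74.0% of the distance from control to 14-day cells for the median gene, with quartiles of 64.4% and 88.1%. Both ends of this distance are groups that the selection set apart. In 9 of the 80 genes the 14-day end rests on at most 3 reads over both libraries. Between the unloaded groups, the 14-day level was lower than the 7-day level in 48 of the 80, higher in 4 and not past the threshold in 28 (edgeR), against 11.0% lower and 11.6% higher among all genes tested. The 4 that were higher in 14-day cells differed by 0.22 to 0.58 on the log2 scale. With total-count scaling, under which the median log2 difference of all genes in this comparison was -0.0935 (0.02 with TMM scaling), 53 of the 80 were lower and 2 higher, and over all genes 2599 were lower and 739 higher, where TMM scaling, which corrects for a few genes taking many counts, gave 1459 lower and 1529 higher. The 14-day libraries were used by the selection as low ones, so these counts too are a description. The median ratio of 14-day to 7-day cells was 0.598 for the 80 genes and 0.942 over all genes tested.

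The change from day 0 to day 3 within 7-day cells shares no library with the selection. In it 67 of the 80 genes rose, 2 fell and 11 did not pass the test (edgeR's quasi-likelihood test, false discovery rate 0.05), while 24.8% of all genes tested rose and 26.9% fell. Both libraries of at least 1 of these groups reached the level of the low-count filter in 70 of the 80. With only the 7-day libraries filtered and fitted, 68 of the 80 were tested, of which 57 rose and 2 fell. The median change was smaller than that of the other control-induced genes: it was 2.57-fold for the 80 (quartiles 1.58 and 5.64) and 5.76-fold for the 122, all of which rose. No test was made of that gap. Over all genes tested the median was 0.972. A change of at least 4-fold was found in 26 of the 80, in 93 of the 122 and in 1.45% of all genes tested. These folds carry the added 0.5 CPM and understate the change of genes with few reads.

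Genes with a larger rise in control cells tended to have a larger rise in 7-day cells. Over the 80 genes the log2 changes correlated at r = 0.65 (Spearman 0.53), and over the other 122 at r = 0.84 (Spearman 0.74). This is a description across genes, which share their libraries and are not independent replicates. The 67 genes that rose in 7-day cells had median levels of 8.23 CPM at day 3 and 1.15 CPM at day 0 there. The 11 that did not pass had medians of 2.24 CPM at day 3 and 2.69 CPM at day 0. In control cells at day 3 these groups of genes stood at medians of 54.0 and 27.3 CPM.

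**Figure D3:**
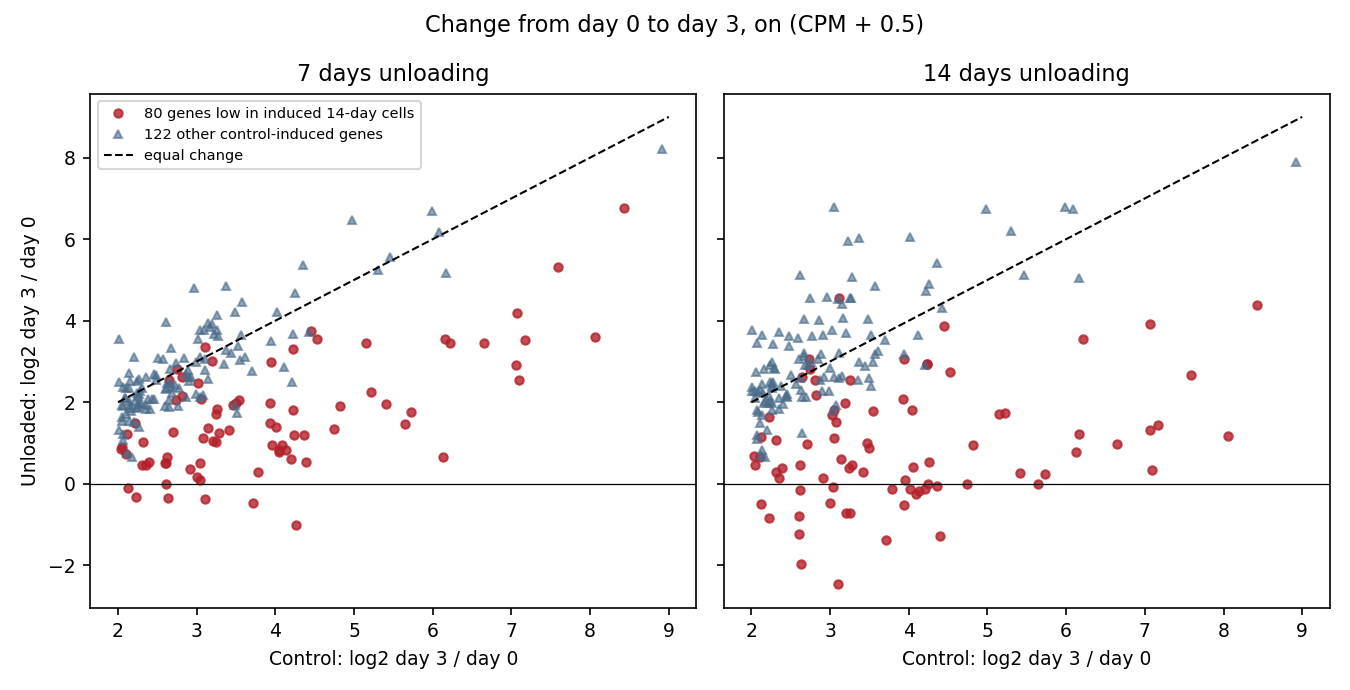
Change from day 0 to day 3 on the log2 scale, with 0.5 CPM added, in 7-day cells (left) and 14-day cells (right) against the change in control cells, for the 80 genes (circles) and the other 122 control-induced genes (triangles). The dashed line marks equal change. The medians were 2.57-fold and 1.59-fold for the 80 genes in 7-day and 14-day cells and 5.76-fold and 7.28-fold for the 122. The 14-day libraries at day 3 were used to divide the genes.

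The member with the highest control level at day 3 that rose in 7-day cells was ENSRNOG00000010633. It had 1660 and 1597 CPM in control libraries at day 3, and 51.7 and 63.0 CPM at day 0. In 7-day libraries it had 217 and 215 CPM at day 3, against 60.8 and 53.2 CPM at day 0. In 14-day libraries it had 90.7 and 85.7 CPM at day 3, against 44.0 and 47.4 CPM at day 0. The 6 day 0 libraries lay between 44.0 and 63.0 CPM. At day 0 the gene was among the 18 members lower in 14-day than in 7-day cells (edgeR). The 3 day 3 groups did not overlap, though the choice of members used the control and 14-day libraries. Within 7-day cells its log2 change was 1.95 (SE 0.07, edgeR adjusted p = 1.51e-23), and within 14-day cells it was 1.00 (SE 0.07, edgeR adjusted p = 1.10e-14).

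ENSRNOG00000056457, the next in control level, was nearly silent before induction in unloaded cells. It had 1442 and 1422 CPM in control libraries at day 3, and 3.31 and 4.02 CPM at day 0. In 7-day libraries it had 115 and 124 CPM at day 3, against 0.633 and 0.579 CPM at day 0. In 14-day libraries it had 12.8 and 13.4 CPM at day 3, against 0.206 and 0.0931 CPM, or 4 and 2 reads, at day 0. The 3 day 3 groups lay far apart, in the order control, 7 days, 14 days, with control and 14 days used in the choice. Its log2 change was 7.63 within 7-day cells (SE 0.30, edgeR adjusted p = 1.86e-33) and 6.47 within 14-day cells (SE 0.53, edgeR adjusted p = 1.16e-23). It therefore rose in both unloaded groups while ending far below control cells.

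The 2 members that fell in 7-day cells were unlike each other in level. ENSRNOG00000013552 had 1352 and 1314 CPM in control libraries at day 3, and 204 and 226 CPM at day 0. In 7-day libraries it had 167 and 164 CPM at day 3, against 218 and 204 CPM at day 0 (log2 change -0.33, SE 0.06, edgeR adjusted p = 6.44e-06). In 14-day libraries it had 59.6 and 58.2 CPM at day 3, against 229.0 and 234 CPM at day 0 (log2 change -1.92, SE 0.06, edgeR adjusted p = 9.48e-26). Its 6 day 0 libraries lay between 204 and 234 CPM, and at day 0 it was among the 4 members higher in 14-day than in 7-day cells (edgeR). Its day 3 level was above its day 0 level in control cells and below it in both unloaded groups. ENSRNOG00000049388 had 1.65 and 0.122 CPM, or 30 and 2 reads, in 7-day libraries at day 3, against 2.53 and 2.06 CPM at day 0 (log2 change -1.29, SE 0.53, edgeR adjusted p = 0.0336). Its fall rests on few reads: the adjusted p was 0.113 without the first 7-day library at day 0, 0.46 when the second induced 7-day library was left out, and 0.39 with DESeq2. In control libraries it had 14.7 and 11.6 CPM at day 3, and 0.427 and 0 CPM at day 0.

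**Figure D4:**
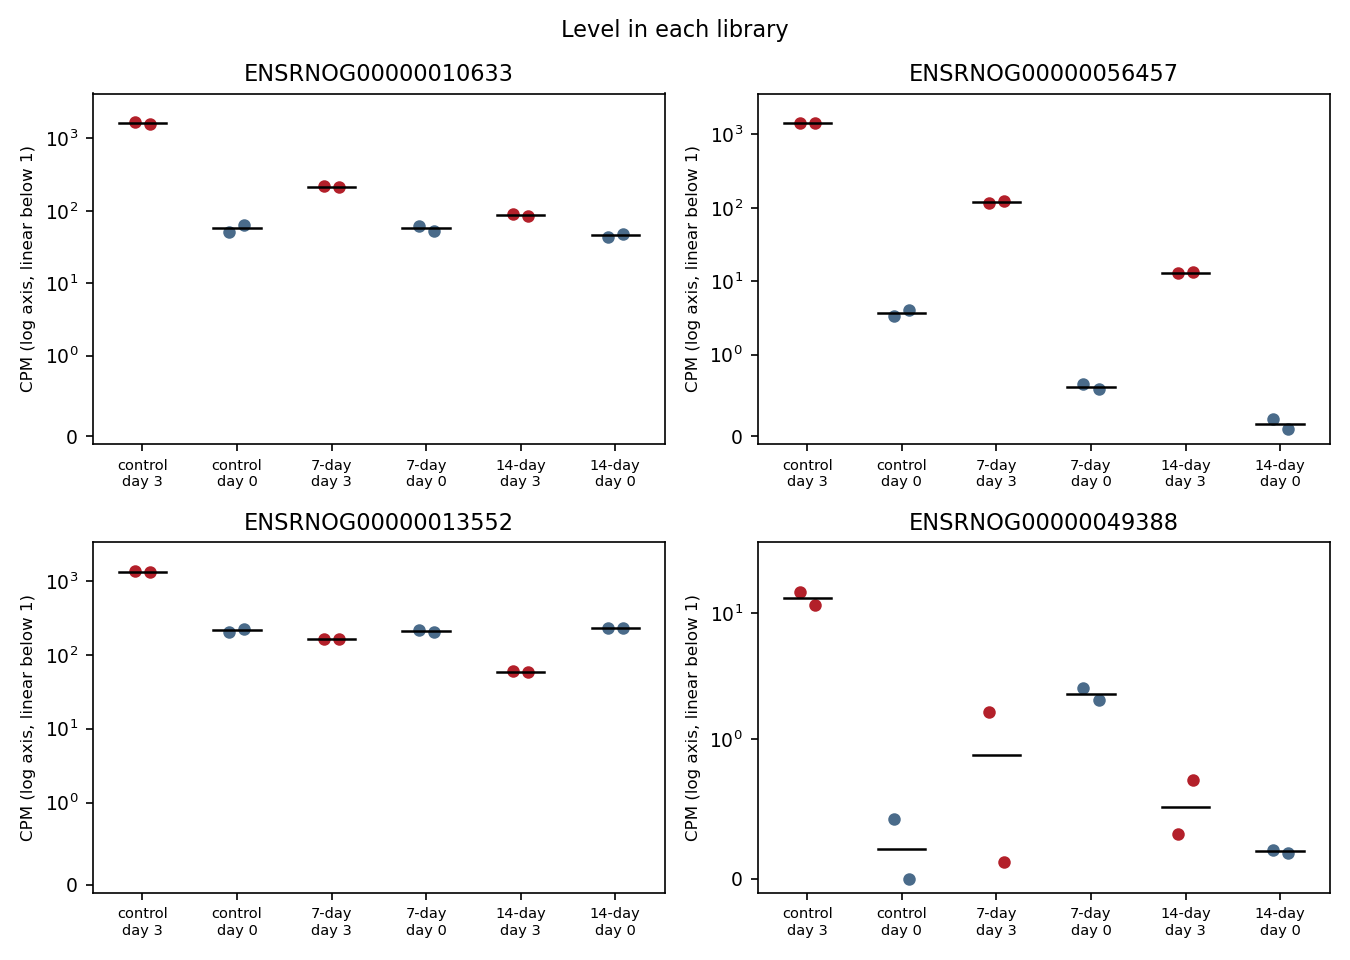
Level in CPM of the 4 named genes in each of the 12 libraries (points, red at day 3 and blue at day 0) with the mean of each group (black bars), on an axis that is logarithmic above 1 CPM and linear below. Both upper genes were higher at day 3 than at day 0 in every treatment, and ENSRNOG00000013552 was higher at day 3 than at day 0 in control cells but lower in 7-day and 14-day cells.

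In 14-day cells the same comparison split the genes further. From day 0 to day 3, 47 of the 80 rose, 11 fell and 22 did not pass the test (edgeR), where 27.7% of all genes tested rose and 28.1% fell. With only the 14-day libraries filtered and fitted, 61 of the 80 were tested, of which 44 rose and 8 fell. The median change over the 80 was 1.59-fold, against 0.968 over all genes tested, and 17 of the 80 changed by at least 4-fold, against 1.80% of all genes tested. The 14-day libraries at day 3 were chosen as low ones, which bears on these counts. All the other 122 genes rose, having been set apart by the same libraries. Of the 80 genes, 46 rose in both unloaded groups, 18 rose in 7-day cells and did not pass in 14-day cells, and 3 rose in 7-day cells and fell in 14-day cells. These joint calls were not counted over all genes tested, so they only describe the 80. The changes within 7-day and within 14-day cells share no library. The difference between these changes passed the interaction test of the same edgeR model in 22 of the 80 genes, with a lower change in 14-day cells in 17 and a higher one in 5, against 4.44% of all genes tested lower and 4.14% higher.

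The 47 genes that rose in 14-day cells had medians there of 10.2 CPM at day 3 and 0.925 CPM at day 0, and a median of 22.5 CPM in induced 7-day cells. The 11 genes that fell had medians of 0.913 CPM at day 3 and 3.98 CPM at day 0 in 14-day cells. Their median was 58.5 CPM in induced control cells, against 6.36 CPM at day 0, and 3.62 CPM in induced 7-day cells, against 3.61 CPM at day 0. These 11 genes were picked for rising in control cells and falling in 14-day cells, so the direction in both follows from the choice. In 7-day cells, which took no part in it, the day 3 and day 0 medians were level. The 22 that did not pass had medians of 0.179 CPM at day 3 and 0.119 CPM at day 0 in 14-day cells, close to the level of single reads, and 5 of the 80 had at most 3 reads in each of these groups, too few for a change to be seen at this depth.

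A group of 12 genes had at most 3 reads over both control libraries at day 0. At day 3 they ran from 5.14 to 133 CPM in control cells, with a median of 11.6 CPM. In induced 7-day cells they ran from 0.263 to 5.61 CPM, with a median of 0.793 CPM, and in induced 14-day cells from 0 to 0.620 CPM, with a median of 0.0502 CPM. The control and 14-day levels at day 3 were used to choose the genes, so the gap between them follows from the choice. The change of these 12 genes from day 0 to day 3 in 7-day cells, which took no part in the choice, had a median of 2.59-fold with 0.5 CPM added. The other 68 genes had medians of 57.3 CPM in induced control cells, 9.29 CPM in induced 7-day cells and 4.35 CPM in induced 14-day cells.

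Before induction, most of the 80 genes did not pass the test between the unloaded groups, nor did 11665 of the 13215 genes tested. The comparison of 14-day with 7-day cells at day 0 shares no library with the selection. In it 18 of the 80 genes were lower, 4 higher and 58 did not pass the test (edgeR), where 6.26% of all genes tested were lower and 5.47% higher. Of the other 122 control-induced genes, 35 were lower and 8 higher. With total-count scaling 19 of the 80 were lower and 3 higher, and over all genes 1523 were lower and 396 higher, where TMM scaling gave 827 lower and 723 higher. The median ratio of 14-day to 7-day cells at day 0 was 0.924 for the 80, 0.813 for the 122 and 0.943 over all genes tested. Low day 0 levels limit this comparison: 10 of the 80 had at most 3 reads in each of the groups, and 52 reached the level of the low-count filter in both libraries of at least 1 of them. Of the 18 that were lower at day 0, 13 were also lower in 14-day than in 7-day cells at day 3, and of the 58 that did not pass at day 0, 34 were. The 14-day libraries at day 3 were chosen as low ones, and 48 of all 80 genes were lower in them. The overlap of the days was not counted over all genes tested, so it is a description only.

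Set against control cells at day 0, which the selection used as low ones, 23 of the 80 were lower and 7 higher in 7-day cells (edgeR), with 11.3% of all genes tested lower and 11.7% higher. In 14-day cells 29 were lower and 3 higher, with 8.89% of all genes tested lower and 7.85% higher. These comparisons share the control libraries. Low levels limit both: 56 of the 80 reached the level of the low-count filter in both libraries of at least 1 group compared. At most 3 reads in each group were found for 11 genes with 7-day cells and 6 with 14-day cells. With only the groups compared filtered and fitted, 57 genes were tested in 7-day cells, 18 lower and 4 higher. In 14-day cells 58 were tested, 25 lower and 4 higher. Over all genes, total-count scaling gave 1173 lower and 1977 higher in 7-day cells and 1407 lower and 865 higher in 14-day cells, and it left the counts for the 80 genes at 23 lower and 7 higher in 7-day cells and at 30 lower and 3 higher in 14-day cells. The median ratio to control at day 0 was 0.951 in 7-day cells and 0.866 in 14-day cells, against 0.161 and 0.0953 at day 3. Over all genes tested it was 1.03 and 0.976 at day 0, against 1.01 and 0.951 at day 3. The added 0.5 CPM draws ratios of low levels towards 1. The control median of the 80 genes was 1.91 CPM at day 0 and 49.3 CPM at day 3. All these ratios share control libraries that were used to choose the genes, and the difference between the days was not tested.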

How the data were processed

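Poly(A) RNA was measured in 12 libraries. The authors deposited raw counts per Ensembl rat gene identifier. Per the submitters' processing notes, the tools were STAR 2.7, featureCounts 1.6.4, FastQC 0.11.9 and DESeq2, with Rnor_6.0 as build. No role, strand setting or annotation is given in the sources used here, so reads shared by overlapping or near-identical genes may be split in unknown ways. The table of rat genes used here held no Ensembl identifiers, and lists of gene symbols and promoter sequences were therefore not used. Between 68.3% and 70.6% of the counts from 1 to 20 in each library were even numbers, so halved counts were tried.

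CPM were computed on column totals. Genes were filtered with filterByExpr, leaving 13215, scaled by TMM and fitted with edgeR 4.0.16 (R 4.3.3, quasi-likelihood, 6 group means, 6 residual degrees of freedom), two-sided, with Benjamini-Hochberg adjustment at 0.05 over all genes tested. Standard errors come from the fitted model's information and the moderated quasi-dispersion. Alternatives were DESeq2 1.42.0, other scalings, filters and subsets, and leaving out libraries. Limits from 3 counts cover counting error only, and treat each count as an independent read. P-values set the difference between groups against the spread between libraries of a group. Whether that spread comes from animals, cultures or technical handling is not known. Within groups, libraries differed beyond the sampling noise of independent reads (chi-square over its degrees of freedom 2.69 to 7.36). If counts came in pairs, as the even numbers may mean, part of this excess is not spread between libraries, and the limits from 3 counts are too narrow.

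The members and lists were chosen with earlier results of these data known. Identifiers are named only for the 2 members of highest control level that rose and the 2 that fell in 7-day cells. These 4 were picked after their values had been seen, from the members that the rule for named genes covers. Other members are described by their values.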

Additional observations from a re-analysis of the deposited data

Results flagged for a closer look

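The change from day 0 to day 3 differed between 14-day and 7-day cells in 22 of the 80 genes, by the interaction test of edgeR's quasi-likelihood fit, a comparison added after the data had been seen. It was lower after 14 than after 7 days in 17 genes and higher in 5, where 4.44% of all genes tested were lower and 4.14% higher. Among the other 122 control-induced genes it was lower in 7 and higher in 32. The 14-day libraries at day 3 were used to choose the 80 genes as low ones and to set the 122 apart, so the directions are not independent of the choice. Of the 17, 13 had risen in 7-day cells. For ENSRNOG00000010633 the difference of the log2 changes, 14-day minus 7-day, was -0.94 (SE 0.10, edgeR adjusted p = 1.21e-08). For ENSRNOG00000013552 it was -1.59 (SE 0.08, edgeR adjusted p = 7.31e-17). For ENSRNOG00000056457 it was -1.16 (SE 0.60, edgeR adjusted p = 0.391), with 6 reads over both 14-day libraries at day 0.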

How the results depend on the processing

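Of the recomputed values, 210 stayed close to the value given, within 1.5 times for a count and within the replicate spread for the median ratio. The other 10 are among those that follow. With DESeq2, 1 of the 80 genes fell in 7-day cells. Leaving out single libraries gave 1 to 2 such falls, 62 to 66 rises in 7-day cells, 2 to 4 genes higher in 14-day than in 7-day cells at day 3, and a median 7-day to control ratio of 0.159 to 0.160. A fit of only the groups compared tested fewer of the 80 genes and found 2 higher and 11 lower in 14-day than in 7-day cells at day 0, and 4 higher in 7-day than in control cells at day 0. Scaling to the total count left 2 genes higher in 14-day than in 7-day cells at day 3. The median 7-day to control ratio at day 3 was 0.147 with 0.1 CPM added and 0.181 with 1 CPM. The number of genes selected was 66 to 99 over the other limits tried. Halved counts gave 64 rises and 2 falls in 7-day cells.

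With the replicate number as a block, 67 of the 80 genes rose and 2 fell in 7-day cells, as without it, and 17 were lower in 14-day than in 7-day cells at day 0. Deviations of same-numbered libraries correlated between groups at -0.0508 to 0.0411, so the numbers were not taken as pairs. Few reads at day 0 limit folds of the least abundant members.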

Other observations

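The counts of the 80 genes were spread differently over the members in each treatment. The 3 genes with the highest induced control level held 34.5% of the members' counts in control cells at day 3, 18.9% in 7-day cells and 8.72% in 14-day cells. The 10 highest held 64.6%, 63.0% and 63.3%. These shares were computed after the data had been seen, on libraries that in control and 14-day cells had been used to choose the genes.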
